A study of Mus musculus with 24 samples.

Results

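The genes described here are those of T cells, of intraepithelial lymphocytes and of cytotoxic cells, followed across the 6 groups of the study. The set holds 42 listed genes, of which 40 had a probe set that carries their symbol alone, out of 18820 genes measured in this way. Lck and Foxp3 had no such probe set and are not analysed here, and Cd244 is named Cd244a on the array. Terminal ileum was taken from 24 male C57BL/6OlaHsd mice of 8 weeks, with 4 mice in each group. The groups were germ-free mice given short-chain β2→1-fructan, long-chain β2→1-fructan or water, and conventional mice given short-chain β2→1-fructan, long-chain β2→1-fructan or water, by gavage at 10 mg of fructan per day for 5 days. Every mouse ate the same D12450B diet. The germ-free mice were bred in a colony of their own and the conventional mice were bought from a supplier, so that colonization and the source of the mice cannot be told apart. In germ-free mice the fructans had been sterilized, the short-chain one by filtration and the long-chain one by irradiation, which shortened part of its longer chains. The material given therefore differed between germ-free and conventional mice.

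T cells see antigen through a receptor that signals by the CD3 chains and is helped by the coreceptors CD4 or CD8. In the small intestine many CD8 T cells lie within the epithelium as intraepithelial lymphocytes, held there by the integrin αE (CD103), which binds E-cadherin on the enterocytes. These cells carry receptors that are otherwise known from natural killer (NK) cells and store granzymes, the proteases that they release together with the pore-forming protein perforin to kill infected cells.

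The values are log2 expression values of 1 array per mouse. Their median ranged from 4.92 to 4.98 over the arrays. The 36 pairs of arrays from 1 group had correlations between 0.979 and 0.990 over the probe sets, as a description. Markers of epithelium and ileum were present throughout, and 0 of the 7 epithelial and 0 of the 2 ileal marker genes (Fabp6 and Slc10a2) were called between germ-free and conventional mice averaged over the 3 treatments. At an adjusted p under 0.05, Krt20 of the epithelium (0.10 on the log2 scale) and Slc10a2 (0.15) were higher in germ-free mice. Calls between groups needed p under 0.01 before adjustment together with more than a 1.3-fold change in limma. Counts of genes with an adjusted p under 0.05 (Benjamini-Hochberg, over all 18820 genes) are given for the whole set and for the marker lists. Dim genes are here those of the lowest quartile by mean log2 value, under 3.59, and 10 of the 40 genes were among them (Cd28, Fasl, Klrc1, Klrc2, Klre1, Klrb1c, Ncr1, Eomes, Ifng and Ctla4). The RNA came from pieces of tissue, in which fewer cells of a type and less RNA per cell cannot be told apart.

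Most of these genes were lower in germ-free mice. Averaged over the 3 treatments, 24 of the 40 genes were called lower in germ-free mice than in conventional mice and 0 were called higher, where 5.22% of all genes were called lower and 2.99% higher. Gzma (granzyme A) was 9.07-fold lower, Cd3g 5.38-fold and Cd7 5.08-fold. The median log2 fold change of the 40 genes was -0.51, against 0.028 over all genes, and 38 of the 40 values were negative, where 41.9% of all genes had a negative value. At an adjusted p under 0.05, 28 genes were lower, where 15.4% of all genes were, and 1 was higher, where 18.6% of all genes were.

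The genes called lower came from each role. They included 5 of the 7 genes of the T cell receptor-CD3 complex and its coreceptors (median log2 fold change -0.67), 6 of the 8 genes of other T cell surface receptors (median -0.51) and both measured genes of proximal signalling (median -0.48). Of 7 cytotoxic effector genes, 4 were called (median -1.24), of 11 genes of NK-type receptors and adaptors 4 (median -0.14), and of 5 measured genes of transcription factors and residency 3 (median -0.51). For 14 of the 40 genes, each of the 12 germ-free mice was below each of the 12 conventional mice, where this held for 2.44% of all genes. These were Gzma, Cd3g, Cd7, Gzmb, Cd3e, Cd8a, Cd96, Nkg7, Itgae, Ctsw, Klrd1, Runx3, Fcer1g and Cd244a.

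**Figure D1:**
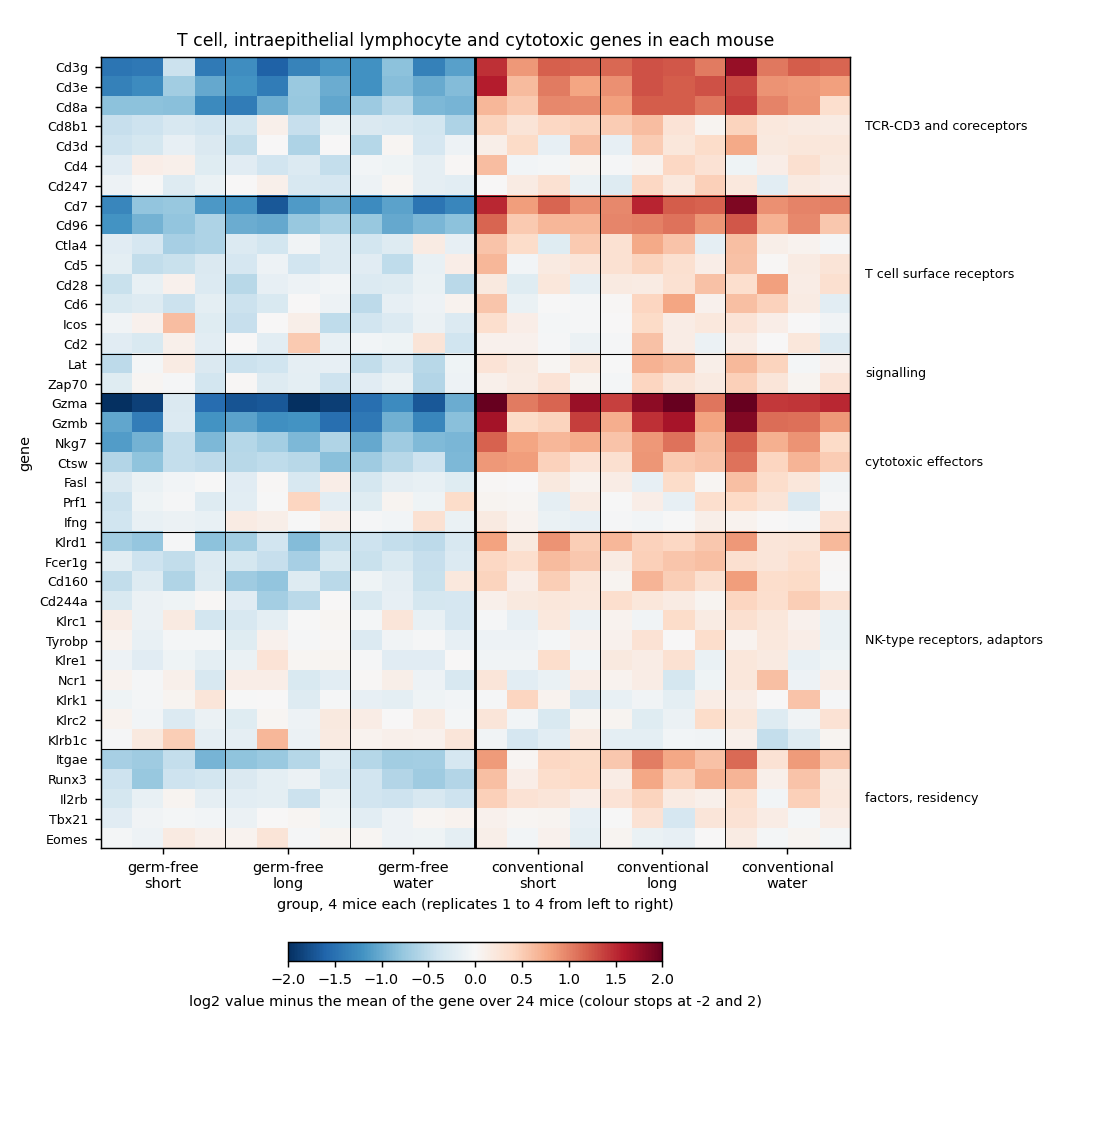
Log2 value of each of the 40 genes (rows, ordered by role) in each of the 24 mice (columns, grouped by colonization and treatment), minus the mean of that gene over all mice; colours run from blue (lower) to red (higher) and stop at 2 in either direction. The 12 germ-free mice on the left are blue and the 12 conventional mice on the right are red for Gzma, Gzmb, Cd3g, Cd3e, Cd7 and Cd8a, whereas rows such as Prf1, Ifng, Klrc2 and Eomes show no such split.

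Within the T cell receptor-CD3 complex, the genes of the γ and ε chains of CD3 differed most. Cd3g (chromosome 9 from 44969572 to 44980431 of GRCm38) had log2 values of 3.60, 3.64, 4.64 and 3.65 in germ-free mice after short-chain fructan, 3.83, 3.45, 3.73 and 3.90 after long-chain fructan and 3.85, 4.24, 3.71 and 3.98 on water. In conventional mice they were 6.53, 5.93, 6.26 and 6.22 after short-chain fructan, 6.21, 6.34, 6.30 and 6.11 after long-chain fructan and 6.80, 6.12, 6.28 and 6.23 on water. The highest germ-free mouse, given short-chain fructan, was still below the lowest conventional one. Cd3g was 5.38-fold lower in germ-free mice (-2.43 on the log2 scale, standard error, SE, 0.11, adjusted p = 1.4e-15). Cd3e, the gene of the ε chain, had 4.66, 5.01, 4.85 and 4.99 in germ-free mice on water, against 7.18, 6.77, 6.73 and 6.68 in conventional mice on water. Over the 3 treatments it was 4.28-fold lower in germ-free mice (-2.10 on the log2 scale, SE 0.10). For both genes more than 1 log2 unit lay between the highest germ-free and the lowest conventional mouse. Cd3d, the gene of the δ chain, lies between both on chromosome 9, 1337 bases from Cd3g and 11682 bases from Cd3e, and was 1.46-fold lower (-0.55 on the log2 scale, SE 0.10). Its values were low in both groups, from 3.02 to 3.68 (median 3.33) in germ-free mice and from 3.48 to 4.40 (median 3.87) in conventional mice, and they overlapped. Cd247, which encodes the ζ chain, was not called (-0.25 on the log2 scale, SE 0.08, adjusted p = 0.021).

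Of the coreceptors, both chains of CD8 were called lower and CD4 was not. Cd8a encodes the α chain of CD8, which intraepithelial lymphocytes can carry as a pair of α chains, and on water it had log2 values of 4.84, 5.03, 4.67 and 4.63 in germ-free mice, against 6.94, 6.55, 6.45 and 5.91 in conventional mice. The means were 4.79 ± 0.18 in germ-free mice and 6.46 ± 0.43 in conventional mice (SD, n = 4), and no mouse of either group lay within the range of the other. Averaged over treatments it was 3.56-fold lower in germ-free mice (-1.83 on the log2 scale, SE 0.10, adjusted p = 5.7e-14). Cd8b1, the gene of the β chain, 35934 bases away on chromosome 6, was 1.59-fold lower (-0.67 on the log2 scale, SE 0.07). It ranged from 4.05 to 4.76 (median 4.29) in germ-free mice and from 4.72 to 5.29 (median 5.01) in conventional mice, with 1 germ-free mouse above the lowest conventional mouse. Cd4, the coreceptor of helper T cells, was 1.24-fold lower, which is under the fold limit (-0.31 on the log2 scale, SE 0.07, adjusted p = 0.0013). Its values overlapped, from 5.93 to 6.54 (median 6.21) in germ-free mice and from 6.32 to 7.02 (median 6.51) in conventional mice. Whether Cd8a and Cd4 differed from each other in their change was not tested.

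Among the other surface receptors of T cells, Cd7 and Cd96 had the most negative log2 fold changes. Cd7 encodes an immunoglobulin-like receptor of T and NK cells, and on water its log2 values were 5.14, 5.34, 4.95 and 5.10 in germ-free mice, against 8.28, 7.31, 7.41 and 7.41 in conventional mice. Over the 3 treatments it was 5.08-fold lower (-2.35 on the log2 scale, SE 0.11, adjusted p = 2.9e-15). Cd96, a receptor for a nectin-like ligand on other cells, had 4.21, 3.94, 4.05 and 4.15 in germ-free mice on water, against 6.21, 5.65, 5.93 and 5.51 in conventional mice on water. It was 3.34-fold lower (-1.74 on the log2 scale, SE 0.09, adjusted p = 1.1e-14), and neither of these genes had a germ-free mouse within the conventional range. Cd5 and Cd6, related scavenger receptor-like proteins that lie 50312 bases apart on chromosome 19, were 1.46-fold and 1.37-fold lower. The costimulatory receptor gene Cd28 was 1.39-fold lower and Ctla4, which encodes the inhibitory receptor for the same ligands, 1.49-fold lower, with overlapping values for each of these 4 genes. Icos, a further costimulatory receptor gene next to them on chromosome 1, had a log2 fold change of -0.25 (SE 0.09, adjusted p = 0.034) and was not called, nor was Cd2, an adhesion receptor gene (-0.12, SE 0.09, adjusted p = 0.34).

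Downstream of the receptor, the kinase gene Zap70 and the adaptor gene Lat were both called. Lat ranged from 3.99 to 4.70 (median 4.24) in germ-free mice and from 4.50 to 5.24 (median 4.74) in conventional mice, 1.46-fold lower (-0.55 on the log2 scale, SE 0.10, adjusted p = 5.7e-05). Zap70 ranged from 3.53 to 4.16 (median 3.89) in germ-free mice and from 4.07 to 4.58 (median 4.32) in conventional mice, 1.33-fold lower (-0.41 on the log2 scale, SE 0.07, adjusted p = 8.1e-05), which is close to the fold limit. A few mice of the groups overlapped for both genes. Without 1 germ-free mouse on water (replicate 3), the log2 fold change of Zap70 was -0.38 and no longer passed that limit.

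The cytotoxic effectors held the most negative value of the set. Gzma encodes granzyme A, a tryptase of cytotoxic granules, and had log2 values of 2.85, 3.55, 5.13 and 3.88 in germ-free mice after short-chain fructan, 3.68, 3.71, 3.33 and 3.52 after long-chain fructan and 3.91, 4.15, 3.71 and 4.41 on water. In conventional mice its values were 7.81, 6.45, 6.58 and 7.13 after short-chain fructan, 6.78, 7.19, 7.44 and 6.49 after long-chain fructan and 7.55, 6.82, 6.84 and 6.92 on water. One germ-free mouse given short-chain fructan (replicate 3) stood above the other germ-free mice, and it was also below each conventional mouse. On water the means of Gzma were 4.04 ± 0.31 in germ-free mice and 7.03 ± 0.35 in conventional mice (SD, n = 4). Over the 3 treatments its log2 fold change was -3.18 (SE 0.18, adjusted p = 3.7e-13), and 6 of the 18820 genes had a more negative one. Gzmb, which encodes the caspase-activating granzyme B, had 3.21, 3.66, 3.32 and 3.80 in germ-free mice on water, against 6.48, 5.74, 5.73 and 5.50 in conventional mice on water. It was 4.72-fold lower (-2.24 on the log2 scale, SE 0.15, adjusted p = 1.3e-11), and the conventional mice were spread over more than 1 log2 unit. Both granzymes were, in germ-free mice, near the limit of 3.59 for dim genes. Nkg7, a membrane protein gene of cytotoxic granules, had 4.01, 4.32, 4.15 and 4.12 in germ-free mice on water, against 6.24, 5.75, 5.93 and 5.41 in conventional mice on water, and was 3.07-fold lower (-1.62 on the log2 scale, SE 0.09). Ctsw, which encodes cathepsin W, a cysteine protease of T and NK cells, had 4.31, 4.46, 4.60 and 4.12 in germ-free mice on water, against 6.11, 5.45, 5.70 and 5.52 in conventional mice on water, and was 2.36-fold lower (-1.24 on the log2 scale, SE 0.09). For each of these 4 genes the germ-free and the conventional mice did not overlap.

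The other 3 effector genes were not called over the treatments. Prf1, which encodes perforin, ranged from 3.99 to 4.84 (median 4.32) in germ-free mice and from 4.13 to 4.81 (median 4.46) in conventional mice. These ranges overlapped almost fully, and the log2 fold change was -0.12 (95% confidence interval -0.31 to 0.07, adjusted p = 0.36). Ifng, the gene of interferon γ, had a log2 fold change of -0.06 (95% confidence interval -0.18 to 0.07, adjusted p = 0.53), with a median under 3 in both groups. Fasl, the gene of the death receptor ligand, had one of -0.30 (95% confidence interval -0.45 to -0.15, adjusted p = 0.0021), and was called on water alone, where it was 1.42-fold lower. The symbols Prf1 and Klrb1c also stand on probe sets shared with other symbols, which were not used.

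**Figure D2:**
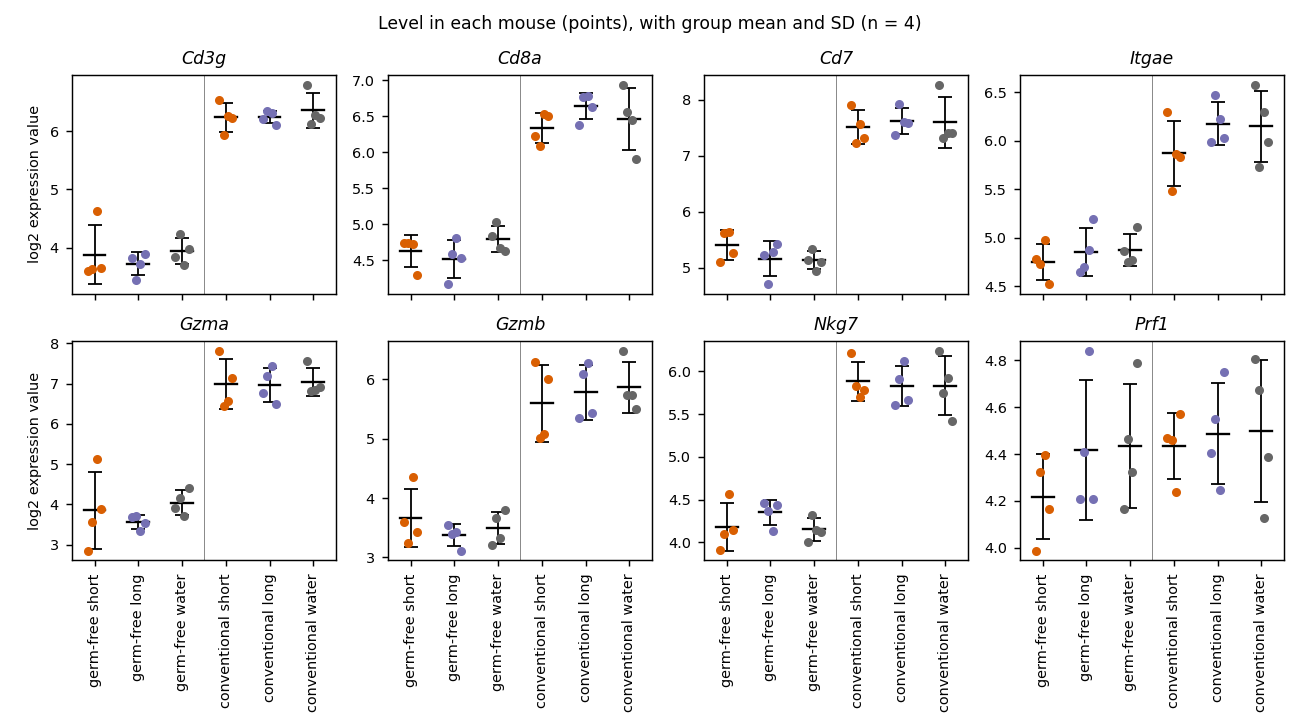
Log2 expression value (vertical axis, a scale of its own for each gene) of 8 genes in each mouse (points) of the 6 groups, with the group mean (long bar) and SD (short bars, n = 4). Cd3g, Cd8a, Cd7, Itgae, Gzma, Gzmb and Nkg7 separate the germ-free mice on the left of each panel from the conventional mice on the right with no overlap, and the values of Prf1 overlap.

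Sequences upstream of 6 of these genes are printed because they were followed above and differ in how they moved, 5 called lower and Prf1 not called. RefSeq windows of 250 bases before to 50 bases after the annotated start were at hand for 28 of the 40 genes, 35 windows in all, on GRCm38.p6. The windows were searched on both strands for the core letters bound by Runx factors (TGTGGT, or ACCACA on the other strand), by T-box factors (GGTGTGA) and by Ets factors (AGGAAG), each counted apart even where motifs overlap. Runx letters are in capitals, and each sequence runs 5′ to 3′ on the strand of its gene. Cd96 (chr16:46120199-46120498, minus strand) and Gzmb (chr14:56262285-56262584, minus strand) each held them in 2 places. Gzma (chr13:113100932-113101231, minus strand), Nkg7 (chr7:43436888-43437187, plus strand) and Prf1 (chr10:61297586-61297885, plus strand) held them in 1 place, and Cd3g (chr9:44980382-44980681, minus strand) in none.
Cd96: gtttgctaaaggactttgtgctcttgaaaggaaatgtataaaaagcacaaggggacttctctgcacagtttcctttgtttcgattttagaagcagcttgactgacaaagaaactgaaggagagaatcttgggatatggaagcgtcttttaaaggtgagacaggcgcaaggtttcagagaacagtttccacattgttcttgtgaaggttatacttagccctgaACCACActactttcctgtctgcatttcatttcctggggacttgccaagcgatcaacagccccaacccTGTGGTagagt
Gzmb: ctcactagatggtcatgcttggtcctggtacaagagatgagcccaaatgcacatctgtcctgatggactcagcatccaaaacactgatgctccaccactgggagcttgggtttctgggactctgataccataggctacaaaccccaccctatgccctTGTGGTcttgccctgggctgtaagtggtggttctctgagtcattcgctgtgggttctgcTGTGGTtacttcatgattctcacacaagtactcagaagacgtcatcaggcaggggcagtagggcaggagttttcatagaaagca
Gzma: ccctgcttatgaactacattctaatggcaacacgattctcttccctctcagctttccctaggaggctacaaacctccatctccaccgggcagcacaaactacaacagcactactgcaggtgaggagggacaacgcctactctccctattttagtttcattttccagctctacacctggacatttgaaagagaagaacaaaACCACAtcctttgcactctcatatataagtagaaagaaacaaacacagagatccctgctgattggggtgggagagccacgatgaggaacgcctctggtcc
Nkg7: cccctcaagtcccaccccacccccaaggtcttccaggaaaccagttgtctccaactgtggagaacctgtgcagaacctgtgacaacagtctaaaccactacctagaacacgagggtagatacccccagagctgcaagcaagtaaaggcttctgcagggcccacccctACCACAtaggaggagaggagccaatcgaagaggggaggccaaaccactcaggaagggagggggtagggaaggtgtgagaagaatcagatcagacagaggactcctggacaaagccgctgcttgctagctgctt
Cd3g: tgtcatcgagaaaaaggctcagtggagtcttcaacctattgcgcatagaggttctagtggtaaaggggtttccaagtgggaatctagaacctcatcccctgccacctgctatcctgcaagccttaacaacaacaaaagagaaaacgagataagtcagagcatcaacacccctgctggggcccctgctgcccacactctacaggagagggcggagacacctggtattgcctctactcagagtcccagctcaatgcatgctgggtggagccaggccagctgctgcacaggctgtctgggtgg
Prf1: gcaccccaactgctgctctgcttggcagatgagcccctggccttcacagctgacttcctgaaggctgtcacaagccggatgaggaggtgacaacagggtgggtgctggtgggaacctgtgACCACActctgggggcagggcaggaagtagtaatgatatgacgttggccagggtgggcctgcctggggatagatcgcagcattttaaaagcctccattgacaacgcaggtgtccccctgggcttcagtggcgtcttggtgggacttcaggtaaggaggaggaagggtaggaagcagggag

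Counted by gene, 16 of the 28 genes with a window held the Runx letters (57.1%), against 18.9% of all 27025 genes in the table, which is a description of the letters and not of binding. Counted by window, where windows of 1 gene can overlap, it was 19 of 35 (54.3%), against 16.8% of all 32851 windows. Of the genes with a window, 9 of the 16 called lower held them (56.2%) and 7 of the 12 not called (58.3%), with no test between them. The Ets letters were in 17 of the 35 windows of the set (48.6%), against 35.4% of all windows. By gene it was 15 of 28 (53.6%), against 38.4%. The T-box letters were in 2 of the 35 windows (5.71%), against 3.98%, and in 2 of the 28 genes (7.14%), against 4.6%.

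Of the NK-type receptors and adaptors, 4 of 11 were called lower. Klrd1 encodes CD94, the partner chain of the NKG2 receptors, and on water had log2 values of 4.02, 3.97, 3.92 and 4.12 in germ-free mice, against 5.30, 4.68, 4.70 and 5.09 in conventional mice. Averaged over treatments it was 2.11-fold lower (-1.08 on the log2 scale, SE 0.10, adjusted p = 1.6e-09), with no overlap. The genes of its partners, Klrc1 and Klrc2, and Klre1 and Klrk1, which all lie in the same cluster on chromosome 6, were not called, with log2 fold changes of -0.16, -0.03, -0.14 and -0.10. The 95% confidence interval of Klrc1 was -0.32 to 0.01 and that of Klrk1 -0.26 to 0.06. Fcer1g, the signalling chain shared by Fc receptors and some T cell receptor complexes, had log2 values of 6.83, 6.98, 6.83 and 7.01 in germ-free mice on water, against 7.60, 7.53, 7.62 and 7.30 in conventional mice on water. It was 1.71-fold lower (-0.77 on the log2 scale, SE 0.06, adjusted p = 4.7e-11), whereas Tyrobp, which encodes the related adaptor DAP12, was not called (-0.14, SE 0.06, adjusted p = 0.058). Fcer1g is also expressed by myeloid and mast cells.

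Cd160, a receptor for the herpesvirus entry mediator found on intraepithelial lymphocytes, was 1.66-fold lower (-0.73 on the log2 scale, SE 0.10). It ranged from 4.02 to 5.03 (median 4.46) in germ-free mice and from 4.80 to 5.65 (median 5.18) in conventional mice. Cd244a, the gene of the receptor 2B4, was 1.43-fold lower (-0.51 on the log2 scale, SE 0.07), with germ-free mice from 4.88 to 5.60 (median 5.31) and conventional mice from 5.63 to 6.06 (median 5.80). Those ranges missed each other by a few hundredths of a log2 unit, while those of Cd160 overlapped. Ncr1, the gene of the NK cell receptor NKp46, was not called (-0.11, SE 0.09, adjusted p = 0.35). Klrb1c, which encodes the NK cell antigen NK1.1, was the 1 gene higher in germ-free mice at an adjusted p under 0.05 (0.25 on the log2 scale, SE 0.09, adjusted p = 0.035), under the fold limit. Its values were dim and overlapped, from 2.79 to 3.63 (median 3.06) in germ-free mice and from 2.50 to 3.16 (median 2.84) in conventional mice. In 11 of the 30 alternatives that kept this gene, its adjusted p was over 0.05, up to 0.073.

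Among factors and residency genes, Itgae encodes the integrin chain αE and had log2 values of 4.87, 4.75, 4.77 and 5.11 in germ-free mice on water, against 6.58, 5.73, 6.29 and 5.99 in conventional mice on water. It was 2.36-fold lower over the treatments (-1.24 on the log2 scale, SE 0.10, adjusted p = 1.3e-10). Runx3, a transcription factor of the CD8 lineage, had 5.07, 4.86, 4.74 and 4.86 in germ-free mice on water, against 6.13, 5.54, 6.03 and 5.64 in conventional mice on water, and was 1.82-fold lower (-0.86 on the log2 scale, SE 0.08). For both genes, each germ-free mouse was below each conventional mouse. Il2rb, the β chain of the receptors for IL-2 and IL-15, was 1.43-fold lower (-0.51 on the log2 scale, SE 0.07), from 4.25 to 4.73 (median 4.41) in germ-free mice and from 4.62 to 5.16 (median 4.94) in conventional mice. The T-box factor genes of cytotoxic cells were not called. Tbx21 had a log2 fold change of -0.12 (95% confidence interval -0.26 to 0.02, adjusted p = 0.17) and Eomes one of 0.03 (95% confidence interval -0.09 to 0.15, adjusted p = 0.74).

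Each treatment was also compared on its own, with 4 germ-free against 4 conventional mice. After short-chain fructan, 19 genes were called lower and 0 higher in germ-free mice, where 4.47% of all genes were lower and 4.29% higher. After long-chain fructan, 25 were lower and 0 higher (6.26% of all genes lower and 3.43% higher), and on water, 23 were lower and 0 higher (5.96% lower and 2.77% higher). The numbers lower at an adjusted p under 0.05 were 19 after short-chain fructan (6.21% of all genes), 24 after long-chain fructan (8.58%) and 23 on water (7.93%). The medians of the 40 log2 fold changes were -0.37 after short-chain fructan, -0.53 after long-chain fructan and -0.52 on water, where the medians over all genes were 0.028, 0.035 and 0.012. With dim genes left out, the medians of the set were -0.67 after short-chain fructan, -0.62 after long-chain fructan and -0.63 on water, which is another order of the treatments.

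In all 3 treatments 18 genes were called lower, where 2.86% of all genes were. A further 5 genes were called in 2 treatments, Ctla4 after both fructans and Cd28, Cd244a, Lat and Zap70 after long-chain fructan and on water. Cd4 and Cd6 were called after long-chain fructan alone and Fasl on water alone, and 14 genes in no treatment. These patterns do not show that treatments differed, which the interaction tests further on. Cd28 had a log2 fold change of -0.20 after short-chain fructan, -0.53 after long-chain fructan and -0.70 on water. For the most negative gene, Gzma, the values were -3.14 after short-chain fructan, -3.41 after long-chain fructan and -2.99 on water, with a standard error of 0.32 each.

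**Figure D3:**
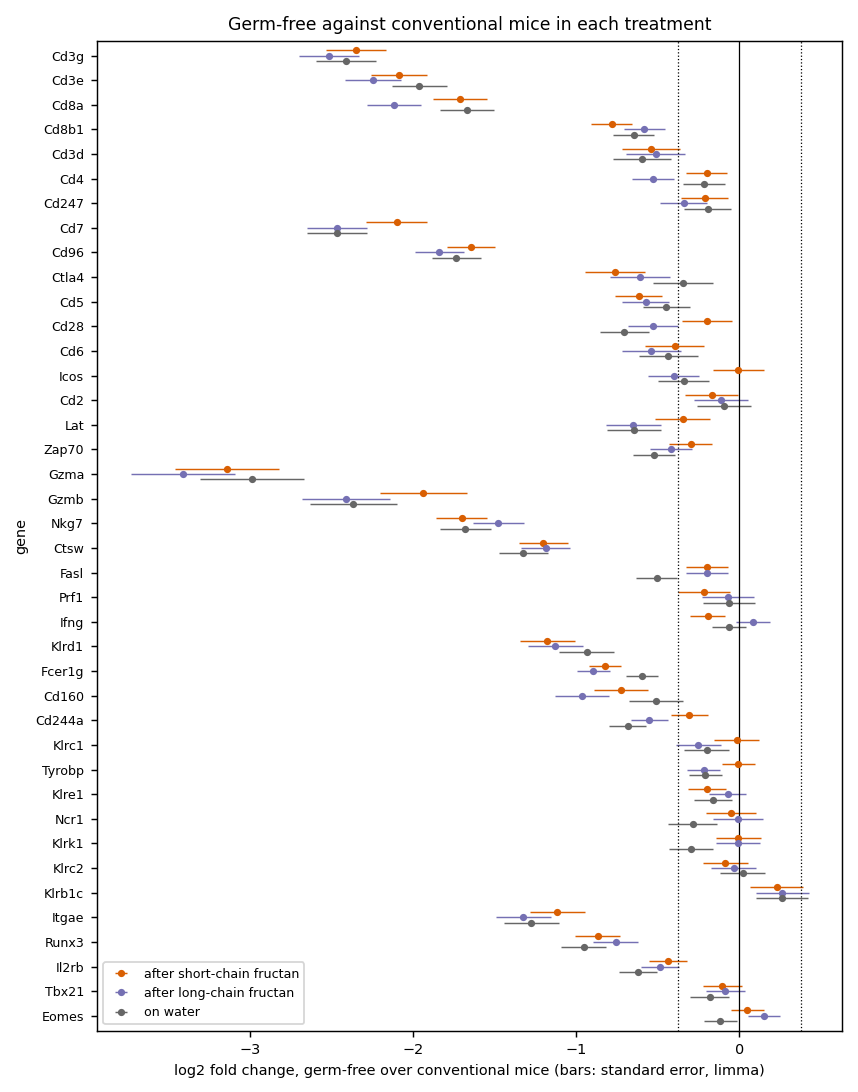
Log2 fold change of germ-free over conventional mice (horizontal axis, 0 is no difference) for each of the 40 genes, after short-chain fructan, after long-chain fructan and on water, with 4 mice in each group; bars are the standard error from limma and dotted lines mark a fold change of 1.3. The points run from about -3 for Gzma to small positive values for Klrb1c, and the 3 points of Cd28 lie at -0.20, -0.53 and -0.70.

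No gene of the set passed the call rule between fructan and water. In none of the 4 comparisons with water was any of the 40 genes called (limma). In germ-free mice, 0.579% of all genes were called after short-chain and 0.855% after long-chain fructan, and in conventional mice 0.409% after short-chain and 0.313% after long-chain fructan. At an unadjusted p under 0.05, 2 of the 40 genes passed after short-chain fructan in germ-free mice (5.71% of all genes) and 3 after long-chain fructan in germ-free mice (8.74%). In conventional mice, 2 passed after short-chain fructan (5.22% of all genes) and 1 after long-chain fructan (5.67%). The medians of the 40 log2 fold changes lay between -0.07 and 0.01 in these 4 comparisons. No gene of the 18820 had an adjusted p under 0.05 in any of them, so that the values of single genes given next are nominal.

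In germ-free mice, Cd160 had 4.11, 4.02, 4.55 and 4.28 after long-chain fructan, against 4.74, 4.63, 4.37 and 5.03 on water, with overlap (-0.45 on the log2 scale, SE 0.16, unadjusted p = 0.011, exact permutation p = 0.057). Runx3 had 5.16, 5.26, 5.34 and 5.12 after long-chain fructan, against 5.07, 4.86, 4.74 and 4.86 on water, and each treated mouse was higher (0.34 on the log2 scale, SE 0.14, unadjusted p = 0.021, exact permutation p = 0.029). Cd4 had 6.17, 6.02, 6.13 and 5.93 after long-chain fructan, against 6.35, 6.31, 6.23 and 6.43 on water, and each treated mouse was lower (-0.27 on the log2 scale, SE 0.13, unadjusted p = 0.046, exact permutation p = 0.029). None of these 3 differences passed the study's rule, and none has an adjusted p under 0.41. After short-chain fructan, Icos had 3.92, 4.07, 4.60 and 3.75, against 3.61, 3.72, 3.88 and 3.72 on water (0.36 on the log2 scale, unadjusted p = 0.032), and the log2 fold change of Ifng was -0.23 (unadjusted p = 0.04). The mouse with 4.60 in Icos is replicate 3, which was also the highest of its group for Gzma.

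In conventional mice, Cd28 was the gene with the smallest p after short-chain fructan, with 3.73, 3.30, 3.77 and 3.35 in treated mice, against 3.87, 4.35, 3.69 and 3.85 on water. The groups overlapped (-0.40 on the log2 scale, SE 0.15, unadjusted p = 0.014, exact permutation p = 0.086). Fcer1g had 7.69, 7.62, 7.92 and 7.82 after short-chain fructan and 7.44, 7.76, 7.83 and 7.88 after long-chain fructan, against 7.60, 7.53, 7.62 and 7.30 on water. Each mouse given short-chain fructan was above the water mice, the closest pair at the same value to 2 decimals (0.25 on the log2 scale, SE 0.10, unadjusted p = 0.017, exact permutation p = 0.029, the smallest that 4 mice against 4 allow). After long-chain fructan the groups of Fcer1g overlapped (0.22 on the log2 scale, SE 0.10, unadjusted p = 0.036).

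For genes with strongly negative colonization values, the intervals of the fructan comparisons give the changes that 4 mice in a group leave possible. For Cd3g the log2 fold change after short-chain fructan was -0.06 in germ-free mice (95% confidence interval -0.44 to 0.32) and -0.12 in conventional mice (-0.50 to 0.26). For Cd8a after long-chain fructan it was -0.27 in germ-free mice (-0.61 to 0.07) and 0.18 in conventional mice (-0.16 to 0.52). Gzma had the widest intervals of the set, -1.14 to 0.17 after long-chain fructan in germ-free mice, around a log2 fold change of -0.48, and -0.72 to 0.60 in conventional mice. Each of these intervals includes changes beyond the fold limit.

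**Figure D4:**
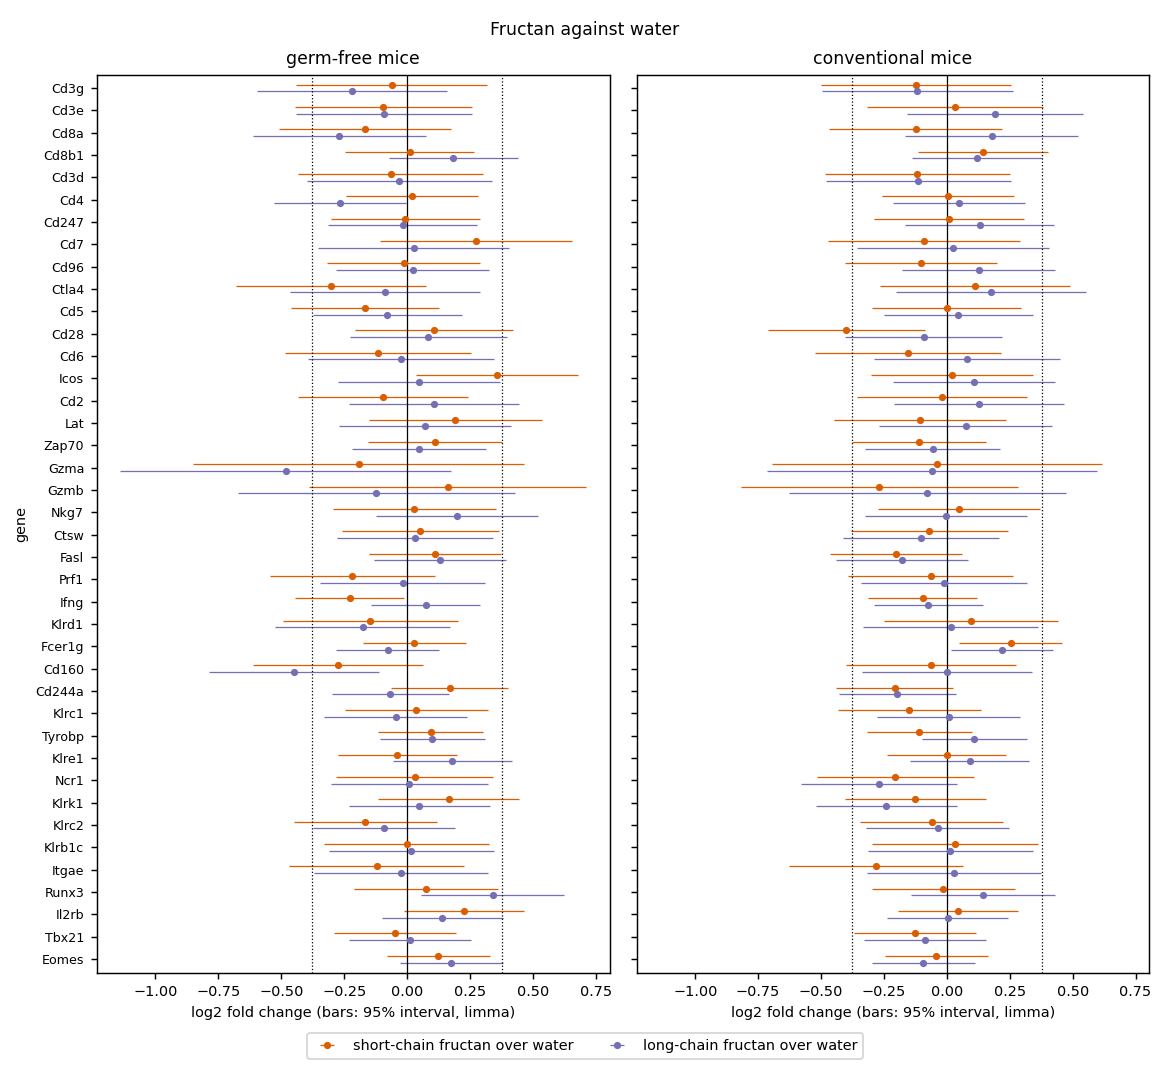
Log2 fold change of short-chain and long-chain fructan over water (horizontal axis) for each of the 40 genes, in germ-free mice (left) and conventional mice (right); bars are 95% confidence intervals from limma, and dotted lines mark a fold change of 1.3. Nearly every interval includes 0, and none of the points passes the call rule.

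Long-chain and short-chain fructan, which differ in the number of fructose units in the chain, were compared at the same dose and time. For germ-free mice the long-chain one was irradiated and the short-chain one filtered, so that chain length and sterilization cannot be told apart there. In germ-free mice none of the 40 genes was called, where 1.41% of all genes were, and in conventional mice none, where 0.213% were. At an unadjusted p under 0.05, 3 genes passed in germ-free mice (12.7% of all genes). Ifng had 3.15, 3.11, 2.98 and 3.09 after long-chain and 2.58, 2.83, 2.87 and 2.83 after short-chain fructan in germ-free mice. Each long-chain mouse was higher, at levels that are dim in every group (0.30 on the log2 scale, 95% confidence interval 0.08 to 0.52, unadjusted p = 0.0083, exact permutation p = 0.029), and the change was under the fold limit. Cd4 had a log2 fold change of -0.29 (unadjusted p = 0.033) and Cd244a one of -0.24 (unadjusted p = 0.046). In conventional mice 1 gene passed (3.63% of all genes), Tyrobp with a log2 fold change of 0.22 (unadjusted p = 0.039). Over the 40 genes, the 95% confidence intervals of long-chain minus short-chain fructan reached from -0.95 to 0.59 in germ-free mice and from -0.68 to 0.74 in conventional mice.

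The interaction asks whether the change after a fructan differed between germ-free and conventional mice, which is also whether the colonization difference varied with treatment. None of the 40 genes was called for short-chain fructan (0.707% of all genes) or for long-chain fructan (0.531%). At an unadjusted p under 0.05, 2 genes passed for short-chain fructan (5.45% of all genes), Cd28 with an interaction of 0.51 on the log2 scale (SE 0.22, unadjusted p = 0.026) and Cd244a with 0.38 (SE 0.16, unadjusted p = 0.027). For long-chain fructan 1 gene passed (3.74% of all genes), Fcer1g with -0.30 (SE 0.14, unadjusted p = 0.044). The comparisons of each fructan with water share their water mice.

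Single mice were highest of their group for many genes of the set in some groups. The mean of the 40 genes per mouse, each gene centred over all mice, ran from -0.48 to -0.20 in germ-free mice (median -0.39) and from 0.22 to 0.66 in conventional mice (median 0.35), with no overlap. In germ-free mice, short-chain replicate 3 (mean -0.20) was the highest of its group for 24 of the 40 genes. In conventional mice, water replicate 1 (0.66) was the highest of its group for 29 genes and short-chain replicate 1 (0.52) for 24. Among germ-free mice, no mouse was the highest of its group for more than 13 genes after long-chain fructan or for more than 16 on water. Conventional long-chain replicate 2 was the highest of its group for 18 genes. Without that mouse, 21 genes were called lower after long-chain fructan. Germ-free short-chain replicate 3 set the highest germ-free value of Gzma, Gzmb, Cd3g, Cd3e and Klrd1. Without conventional water replicate 1, 20 genes were called lower on water, and Cd3d, Cd5 and Cd160 no longer were.

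Part of the genes on further T cell and cytotoxic lists, chosen with the set, were called lower as well. Some of them, such as the leukocyte gene Ptprc, are not specific to T cells. Of 15 measured genes of further T cell signalling, 7 were called lower over the treatments and 0 higher (12 lower and 1 higher at an adjusted p under 0.05), with a median log2 fold change of -0.32. They included Ptprc, the gene of the leukocyte phosphatase CD45 (1.75-fold), Lcp2, an adaptor of T cell receptor signalling (1.74-fold), and Cd69, an early activation and residency marker (1.67-fold). Of 20 further cytotoxic and intraepithelial lymphocyte genes, 12 were called lower and 0 higher (median -0.41), and 13 were lower at an adjusted p under 0.05. Ccl5, a chemokine stored by cytotoxic T cells, was 7.02-fold lower (-2.81 on the log2 scale, SE 0.13), and Ccr9, the gut-homing receptor, 2.48-fold lower. The other granzyme genes of the list, Gzmc, Gzmk and Gzmm, were not called, with log2 fold changes of -0.01, -0.18 and 0.08. Of 8 T helper and innate lymphoid genes 3 were called lower, Il23r, Il7r and Stat4, and 5 were lower at an adjusted p under 0.05. Of 11 genes that epithelial cells use towards intraepithelial lymphocytes, 1 was called lower, Btnl2 (1.32-fold, close to the fold limit). At an adjusted p under 0.05, 4 were lower and 1 higher, and the median log2 fold change of the 11 was -0.02. Il15, the cytokine that maintains intraepithelial lymphocytes, had a log2 fold change of -0.18 (SE 0.08) and Cdh1, the gene of E-cadherin, one of -0.01. Over all genes 5.22% were called lower and 2.99% higher, and 15.4% were lower and 18.6% higher at an adjusted p under 0.05. Between fructans and water, 1 gene of these lists was called, Btnl1, lower in germ-free mice after long-chain fructan (-0.38 on the log2 scale). In that comparison 0.855% of all genes were called, and in the other comparisons with water 0.313% to 0.579%. Between long-chain and short-chain fructan, Cxcr3 of the cytotoxic list was called higher in conventional mice (0.213% of all genes called). Jaml of that list was called lower in germ-free mice (1.41% of all genes called).

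Markers of other cells also moved with colonization, where over the treatments 5.22% of all genes were called lower and 2.99% higher. At an adjusted p under 0.05, 15.4% of all genes were lower and 18.6% higher over the treatments. Of 6 measured plasma cell genes 4 were called lower, Jchain most (6.95-fold), 5 were lower at an adjusted p under 0.05, and the mean of that list per mouse ran from -0.84 to -0.04 in germ-free mice and from 0.30 to 0.70 in conventional mice. Of 13 B cell and follicle genes 3 were called lower (Cd79a, Cd79b and Cd72) and 4 were lower at an adjusted p under 0.05, with list means from -0.33 to 0.45 in germ-free mice and from -0.04 to 0.20 in conventional mice. Of 8 myeloid genes 2 were called lower over the treatments (Csf1r and Itgam), and 7 were lower at an adjusted p under 0.05. After long-chain fructan 6 of the 8 were called lower, where 6.26% of all genes were. The myeloid list means ran from -0.38 to 0.01 in germ-free mice and from 0.12 to 0.34 in conventional mice. Of 6 smooth muscle genes 4 were called lower and 6 were lower at an adjusted p under 0.05, with list means from -0.88 to 0.07 in germ-free mice and from 0.10 to 0.39 in conventional mice. The 4 measured adipocyte genes (Adipoq, Plin1, Fabp4 and Lep) were called higher, with list means from -0.62 to 1.50 in germ-free mice and from -1.21 to 0.09 in conventional mice. The 7 epithelial genes overlapped, with list means from -0.04 to 0.15 in germ-free mice and from -0.06 to 0.04 in conventional mice. The part of these cells in the values of the T cell and cytotoxic genes was not tested.

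A pair of germ-free mice stood apart in their B cell markers. Long-chain replicates 3 and 4 had B cell list means of 0.39 and 0.45, above every other mouse of the study. Their means of the 40 T cell and cytotoxic genes were -0.39 and -0.36, within the range of the other germ-free mice. After long-chain fructan, the B cell genes Ms4a1, Cd79b, Cr2 and Pax5 were called higher than on water in germ-free mice. None of the 40 genes was called there. Of all genes 0.855% were called in either direction, so that this count does not set the 40 genes apart from all genes. Without both mice, 23 of the 40 genes were called lower after long-chain fructan and 24 over the treatments.

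**Figure D5:**
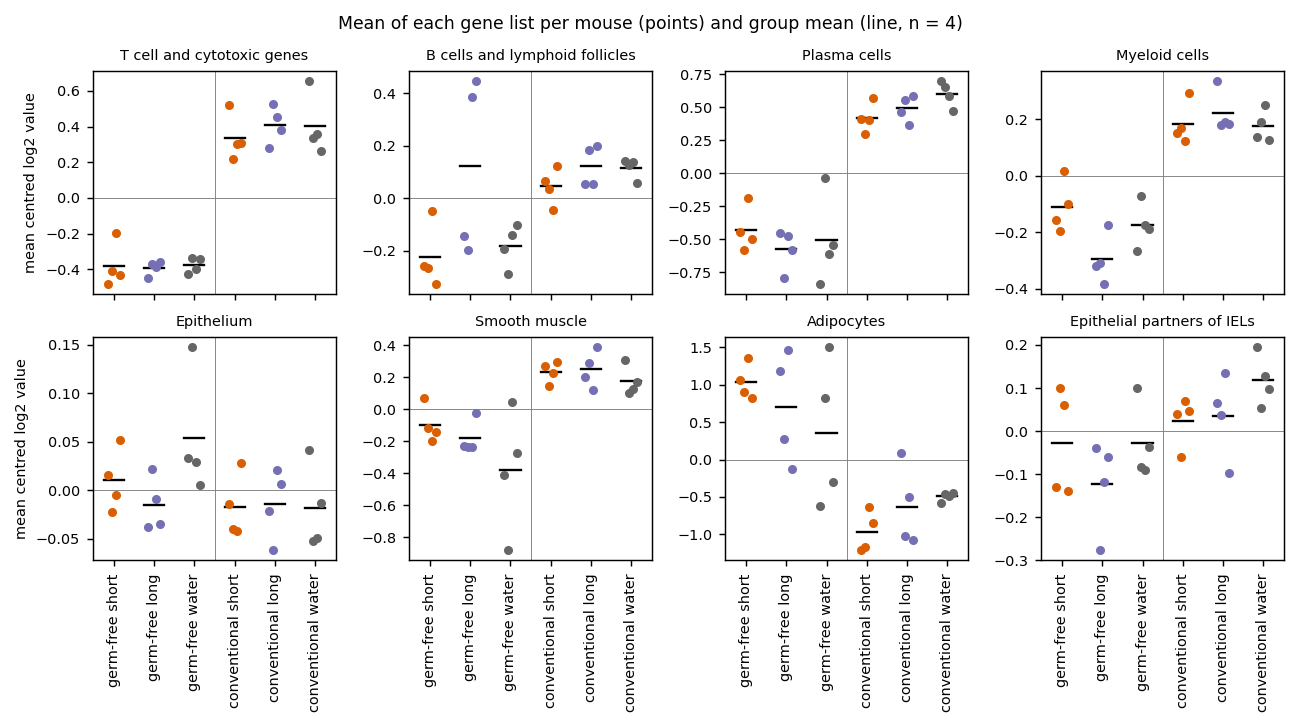
Mean log2 value per mouse of the 40 T cell and cytotoxic genes and of 7 marker lists (vertical axes, each gene centred over the 24 mice, scales differ between panels) in the 6 groups; points are mice and lines are group means (n = 4). The T cell and cytotoxic genes lie between -0.48 and -0.20 in the germ-free mice and between 0.22 and 0.66 in the conventional mice, plasma cell, myeloid and smooth muscle genes are lower in germ-free mice, adipocyte genes higher, and epithelial genes overlap.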

How the data were processed

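Terminal ileum RNA of 24 mice was hybridised to Affymetrix Mouse Gene 1.1 ST arrays, 1 mouse per array. The deposited table holds log2 expression values, which the authors obtained by robust multi-array averaging (RMA, affyPLM). Their methods name a remapped probe definition, whereas the deposited identifiers are the manufacturer's probe sets. RMA draws arrays to 1 distribution and compresses changes of dim genes. Of the probe sets, 21218 carried 1 symbol, 1881 several and 12457 none in the platform annotation. The 1386 genes with several sets were represented by the set with the highest mean, giving 18820 genes. Arrays have no read depth, and 4 mice per group limit the precision.

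Differences were estimated in limma 3.58.1 (R 4.3.3) with a mean for each of the 6 groups and a trended prior variance, over all genes. The call rule was the study's (unadjusted p under 0.01, fold change over 1.3), and Benjamini-Hochberg values run over all 18820 genes. Exact permutation tests were two-sided, and 4 mice against 4 give at least p = 0.029. Every gene of the set with a probe set of its own is named, with values per mouse for called genes with the smallest p. The set, the marker lists and the tests were chosen with earlier results of these data known. Replicates are separate mice. Scripts were tested on simulated data. Promoter windows came from RefSeq (GRCm38.p6). Alternatives were the prior variance, the arrays in the fit, cyclic loess, a filter on dim genes, averaged probe sets, a replicate block and leaving out each mouse.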

Additional observations from a re-analysis of the deposited data

Results flagged for a closer look

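Among the genes called in any comparison and the mean of the set, 9 of 162 groups of 4 mice (5.56%) held a mouse whose gap to its neighbour passed Dixon's critical value for the range of the group. Chance gives such a mouse in about 1 in 20 groups. In conventional mice on water, replicate 1 stood above the others with 8.28 for Cd7 (others 7.31 to 7.41), with 7.55 for Gzma (others 6.82 to 6.92) and with 4.40 for Cd3d (others 3.85 to 3.87). In germ-free mice given short-chain β2→1-fructan, replicate 3 stood above the others with 4.64 for Cd3g (others 3.60 to 3.65) and with 4.41 for Klrd1 (others 3.62 to 3.74). In the same group, replicate 4 was below the others with 4.30 for Cd8a (others 4.72 to 4.75) and replicate 2 with 4.68 for Runx3 (others 5.03 to 5.08). Replicate 1 of the conventional mice given short-chain β2→1-fructan was high with 7.02 for Cd4 (others 6.35 to 6.47), and replicate 4 of the germ-free mice given long-chain β2→1-fructan was low with 4.18 for Ctsw (others 4.46 to 4.51).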

How the results depend on the processing

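The counts of genes called lower in germ-free mice stayed within 1.5 times of their reported values in each alternative. Leaving out 1 mouse gave 17 to 19 after short-chain fructan, 21 to 26 after long-chain fructan, 20 to 24 on water and 23 to 24 over the treatments, and at an adjusted p under 0.05 it gave 18 to 19, 21 to 26, 20 to 23 and 27 to 30 lower, in the same order (27 to 31 over the treatments with Klrb1c, which was higher, counted in). Single calls kept in every alternative that held the gene were 17 of 19 after short-chain fructan, 20 of 25 after long-chain fructan, 20 of 23 on water and 23 of 24 over the treatments, and 0 changed sign. Those lost in some were Cd3d and Il2rb after short-chain fructan, Cd28, Cd3d, Cd6, Ctla4 and Zap70 after long-chain fructan, Cd160, Cd3d and Cd5 on water, and Zap70 over the treatments (without germ-free water replicate 3). The filter on dim genes also took out called genes. These were Ctla4 after short-chain fructan, Cd28 and Ctla4 after long-chain fructan and over the treatments, and Cd28 and Fasl on water. It left 18 called after short-chain fructan, 23 after long-chain fructan, 21 on water and 22 over the treatments. Between long-chain fructan and water in germ-free mice the count of 0 became 1 with cyclic loess (Cd160, log2 fold change -0.47, adjusted p = 0.44), with only the compared arrays (Gzma, -0.48, adjusted p = 0.84) and without both mice with high B cell markers, chosen after seeing the data (Cd160, -0.63, adjusted p = 0.43); the cause was not tested. Leaving out 1 mouse gave 0 to 1 call in that comparison (Cd160, -0.55 without germ-free long-chain replicate 3 and -0.56 without germ-free water replicate 3), 0 to 1 after short-chain fructan in germ-free mice (Icos, 0.47 without short-chain replicate 4) and in conventional mice (Cd28, -0.46, -0.48 and -0.48 without short-chain replicates 1 or 3 or water replicate 3), and 0 to 1 in the long-chain interaction (Fcer1g, -0.39 without conventional long-chain replicate 1). Mice of the same replicate number were not paired, with correlations of -0.13 to 0.18 over 36 pairs, of which 3 were over 0.1. With the replicate number as a block, 19, 25, 23 and 24 genes were called after short-chain fructan, after long-chain fructan, on water and over the treatments, and no count moved by over 1.5 times. With dim genes left out the median log2 fold change of the set was -0.67 after short-chain fructan, -0.62 after long-chain fructan and -0.63 on water.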
